A study of Mus musculus with 21 samples.

Results

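The 36 genes described here carry out or control the synthesis of sterols and fatty acids and the export of cholesterol in mouse macrophages. They were taken by name, as the rows of the deposited count matrix whose gene symbol is on a fixed list. That list was drawn up with earlier results of these data known. All 36 were found among the 47069 rows, and all 36 were among the 14473 genes with enough counts to be tested. By role, 7 encode steps up to farnesyl diphosphate (the mevalonate steps), 11 encode steps from squalene to cholesterol, 6 control the SREBP factors or move sterols, 7 make, elongate or desaturate fatty acids, and 5 belong to LXR signalling, cholesterol export, LDL receptor turnover and cholesterol esterification.

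RNA was sequenced from bone marrow-derived macrophages, cells that had differentiated from mouse marrow over 5 days under M-CSF, the growth factor that turns marrow precursors into macrophages. The cells were then held for 36 h with no cytokine, with IL-33 or with IL-4. There were 21 libraries, 3 in each of 7 groups, with 32626469 to 48743646 counted reads a library. Wild-type C57BL/6 cells formed 3 groups (no cytokine, IL-33, IL-4), and cells labelled C57BL/6:ST2-/- and cells labelled C57BL/6:Cx3cr1CRExGata3fl/fl formed 2 groups each (no cytokine, IL-33). IL-4 was given to wild-type cells only. ST2 is the ligand-binding chain of the IL-33 receptor. In the floxed line, the Cx3cr1 promoter drives a Cre recombinase meant to remove floxed Gata3 from macrophages and their precursors. Counts per gene did not check either deletion: Il1rl1, the ST2 gene, stood at 15.7 ± 1.45 CPM (SD, n = 3) in the wild type and 17.4 ± 2.95 CPM in cells labelled ST2-/-, both unstimulated, and Gata3 was at most 0.444 CPM in every library. CPM, the unit of level used here, is the gene's count as a share of the scaled library size. The genotypes are therefore given as labels. The labels do not say whether libraries of a group came from separate animals, so p-values reflect only how far these libraries differ, and that spread may be technical.

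The cells carried macrophage RNA in every group. The summed level of the macrophage markers (mostly Lyz2, with Adgre1, Csf1r, Cd68 and others) was 16720 to 45630 CPM per library over all 7 groups. Ly6g (neutrophils), Xcr1 and Clec9a (dendritic cells) and Plin1 (adipocytes) averaged under 1 CPM in each. Other members of those lists were expressed: unstimulated wild-type cells averaged 11.7 CPM of Mmp8, 63.6 CPM of Itgax and 60.7 CPM of Pparg. The 6 libraries of the floxed line carried Xist at 277 to 376 CPM and Ddx3y, a Y-linked gene, at no more than 0.0286 CPM. The other 15 libraries carried Xist at no more than 0.0462 CPM and Ddx3y at 61.0 to 86.3 CPM. The floxed line and the wild type thus differed in sex as well as in the labelled genotype, and these cannot be told apart in comparisons between them. Among the 36 genes, Nsdhl and Ebp lie on the X chromosome.

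Cells make cholesterol from acetyl-CoA by way of mevalonate, isoprenoids, squalene and lanosterol. The transcription factors SREBP-1 and SREBP-2 (genes Srebf1 and Srebf2) drive the genes of this route and of fatty acid synthesis: when membrane sterol is low, the escort protein SCAP carries them from the endoplasmic reticulum to the Golgi, where they are cut and freed, and INSIG proteins hold SCAP back when sterol is plentiful. The liver X receptors, among them Nr1h3 (LXR alpha), sense oxysterols and drive export through ABCA1 and ABCG1, so that macrophages can unload the cholesterol they take in from debris and lipoproteins.

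Promoter sequence from RefSeq (assembly GRCm38.p6) was available for 28 of the 36 genes. The entries not matched were Fdps, Fdft1, Sqle, Scd1, Scd2, Fads1, Abcg1 and Stard4. Windows of 300 bases, from 250 before to 50 after each transcription start, were searched on both strands for 3 motifs that do not overlap one another in the stretches shown: the sterol regulatory element TCACNCCAC bound by SREBPs, CCAAT bound by NF-Y, and GGGCGG bound by Sp1. CCAAT was found for 21 of the 28 genes (75%), against 42.9% of 9915 tested genes with a window and 41.1% of all 27025 genes with one. A gene counted if any of its windows matched. The match was present for 5 of 6 mevalonate genes, 9 of 9 squalene and sterol genes and 1 of 4 fatty acid genes. It was also present for 4 of 5 genes of SREBP control and transport and 2 of 4 of LXR signalling and export. The sterol regulatory element in exactly these letters was found for 1 of the 28 genes, Hmgcs1, against 1.45% of the tested genes with a window. GGGCGG was found for 23 of 28 genes (82.1%), against 67% of the tested genes with a window and 38.2% of all genes with one. Its split by role was the same as that of CCAAT for 3 roles: 5 of 6 mevalonate, 9 of 9 squalene and sterol and 1 of 4 fatty acid genes. It was present for 5 of 5 genes of SREBP control and transport and 3 of 4 of LXR signalling and export. A match describes these letters in these windows and is no evidence of a bound factor.

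Of the promoters, 6 stretches are shown because they carry genes whose RNA behaved differently below. Hmgcs1, Mvk, Mvd and Nsdhl are synthesis genes that rose with both cytokines, Insig1 passed the test with neither, and Abca1 moved in opposite directions. Among genes not shown, Mylip had 3 CCAAT matches yet fell with both cytokines. Of the other genes without CCAAT, Acat2, Acaca and Fads2 rose with both, Elovl6 with IL-33 only and Nr1h3 with IL-4 only, and Scap fell with both. Whether CCAAT goes with the response was not tested. Capitals mark CCAAT, its reverse complement ATTGG, and the sterol regulatory element. Each is printed 5′ to 3′ on the strand of its gene. The positions are chr13:119690171-119690330 (+ strand, Hmgcs1), chr5:114444089-114444268 (+, Mvk), chr8:122443423-122443522 (-, Mvd), chrX:72918412-72918520 (+, Nsdhl), chr5:28071182-28071301 (+, Insig1) and chr4:53159896-53160015 (-, Abca1), all upstream of the annotated start.
Hmgcs1: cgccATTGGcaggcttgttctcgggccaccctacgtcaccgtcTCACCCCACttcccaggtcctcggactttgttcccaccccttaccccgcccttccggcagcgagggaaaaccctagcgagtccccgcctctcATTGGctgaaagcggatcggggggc
Mvk: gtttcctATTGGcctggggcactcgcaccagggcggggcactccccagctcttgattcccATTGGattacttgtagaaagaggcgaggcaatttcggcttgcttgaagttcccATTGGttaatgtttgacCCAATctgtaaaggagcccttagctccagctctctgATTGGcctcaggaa
Mvd: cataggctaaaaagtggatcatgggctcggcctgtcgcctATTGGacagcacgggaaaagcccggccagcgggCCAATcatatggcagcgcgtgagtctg
Nsdhl: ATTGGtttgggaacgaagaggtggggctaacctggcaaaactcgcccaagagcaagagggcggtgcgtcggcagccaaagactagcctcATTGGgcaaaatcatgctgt
Insig1: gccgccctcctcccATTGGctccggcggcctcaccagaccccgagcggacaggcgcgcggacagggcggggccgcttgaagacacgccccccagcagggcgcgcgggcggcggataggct
Abca1: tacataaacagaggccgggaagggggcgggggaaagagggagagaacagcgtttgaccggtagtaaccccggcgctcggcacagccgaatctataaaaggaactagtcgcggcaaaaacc

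Before any cytokine, the RNA levels of the 36 genes in wild-type cells spanned a wide range once divided by exon length. Abcg1, an exporter of cholesterol to HDL, stood highest at 56.3 ± 2.03 CPM per kb (SD, n = 3), followed by Insig1 at 53.4 ± 2.77 CPM per kb, and the 3 libraries of these neighbours overlapped. Scd2, a stearoyl-CoA desaturase, followed at 46.9 ± 5.29 CPM per kb, Soat1, the enzyme that esterifies cholesterol for storage, at 39.0 ± 1.01 CPM per kb, and Fads1, the delta-5 desaturase, at 38.8 ± 1.2 CPM per kb. The ranges of Insig1 and Scd2 overlapped, as did those of Soat1 and Fads1. The lowest were Fdps at 0.420 ± 0.0249 CPM per kb, Elovl6 at 1.21 ± 0.0507 CPM per kb and Tm7sf2 at 1.93 ± 0.124 CPM per kb. The low value of Fdps, which encodes farnesyl diphosphate synthase, came with 26.2% of its exon 50-base words shared with other genes, first among them Gm43738, an overlapping gene on the same strand. Counts of Acat2 (39.1%, shared with Acat3 first), Acaca (30.4%, Gm5182), Fdft1 (26.5%, the overlapping Ctsb on the opposite strand) and Idi1 (25.3%, Gm13502) were uncertain for the same reason, and how reads over shared or overlapping exons were assigned is not given in the sources used here.

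IL-33 and IL-4 each raised most of the 36 genes in wild-type cells. With IL-33, 30 of the 36 genes rose (18.5% of all tested genes did), 2 fell (16.9% of all tested genes) and 4 did not pass the test. With IL-4, 30 rose (25.1% of all tested genes), 4 fell (22.5%) and 2 did not pass. The median log2 change of the 36 genes was 0.57 with IL-33 and 0.53 with IL-4, against 0.00 and 0.01 over all 14473 genes. Every mevalonate gene (7 of 7) and every squalene and sterol gene (11 of 11) rose with each cytokine. The remaining roles were mixed. The test throughout was edgeR's quasi-likelihood test with Benjamini-Hochberg adjustment over all tested genes, with 0.05 as the limit for a call. In bulk RNA, a change in the share of cells that carry a transcript cannot be told apart from a change in RNA per cell. Both comparisons share the 3 unstimulated wild-type libraries. Upper-quartile scaling changed the counts over all genes from 2676 up and 2446 down to 2251 up and 3010 down with IL-33, and from 3627 up and 3263 down to 3209 up and 3718 down with IL-4.

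**Figure D1:**
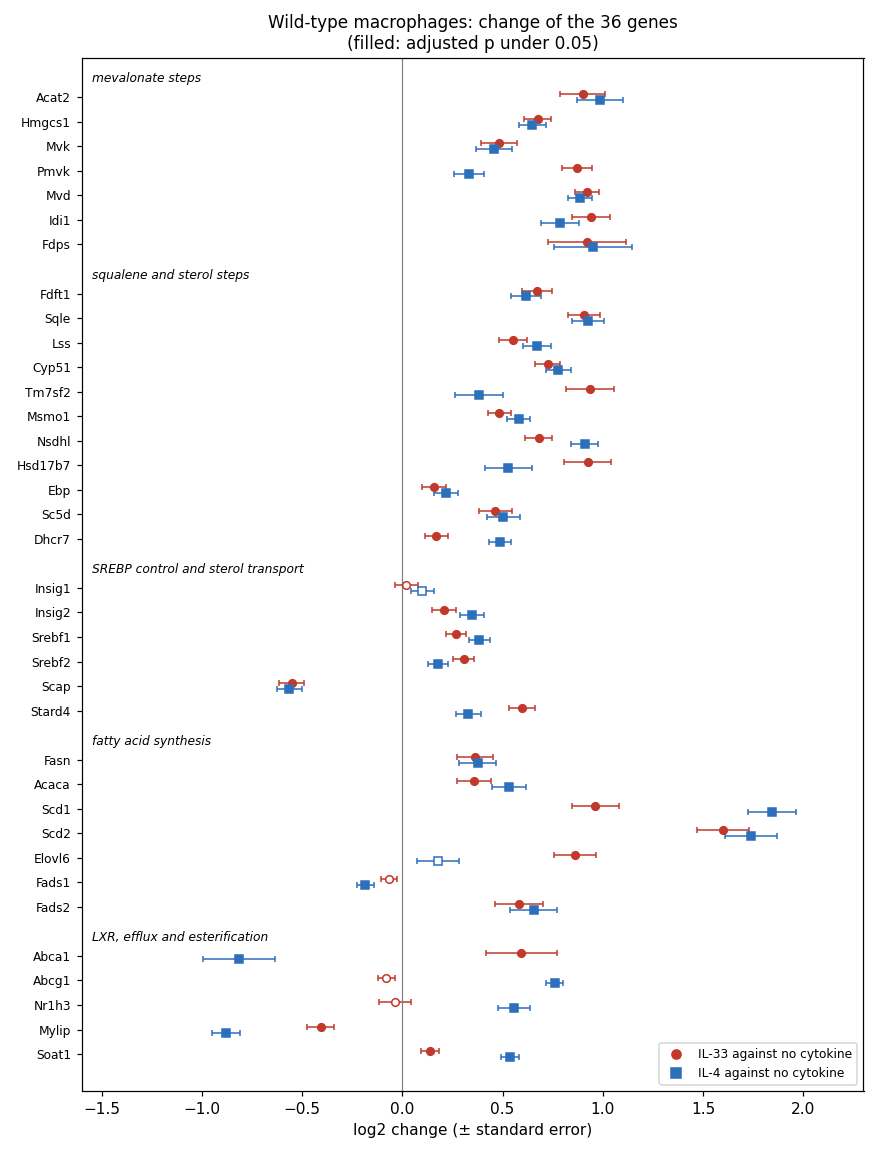
Change of each of the 36 genes in wild-type macrophages, grouped by role. The x axis is the log2 change against no cytokine with its standard error from the fit of all 21 libraries (3 libraries a group). Circles are IL-33 and squares IL-4, and filled symbols passed the test. All mevalonate and sterol genes lie to the right of 0, Scap and Mylip lie to the left with both cytokines, and Abca1 lies on opposite sides.

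Markers of other cells moved with the cytokines too. The summed level of the neutrophil list was 42.1 to 57.5 CPM per library in unstimulated wild-type cells, 288 to 434 CPM with IL-33 and 64.9 to 104 CPM with IL-4, mostly Mmp8 and Mmp9, with Ly6g at or near 0. By test, 8 of 11 neutrophil markers rose and 0 fell with IL-33, and 3 rose and 6 fell with IL-4. The erythroid and megakaryocyte list went from 14.8 to 23.0 CPM up to 165 to 218 CPM with IL-33, mostly Pf4, and was 13.4 to 15.5 CPM with IL-4. The monocyte list was 232 to 268, 430 to 630 and 322 to 515 CPM with no cytokine, IL-33 and IL-4. Its higher sum with IL-4 came from Fn1, which went from a mean of 7.92 to 321 CPM, while Ccr2 went from 227 to 96 CPM. Of the 7 monocyte markers, 6 rose and 0 fell with IL-33, and 1 rose and 3 fell with IL-4. In the same order, the dendritic cell list, mostly Itgax, was 48.7 to 96.2, 128 to 210 and 831 to 1236 CPM. The lymphocyte list, mostly Il7r, was 170 to 202, 142 to 159 and 319 to 327 CPM. The adipocyte list, almost only Pparg, was 58.5 to 64.1, 23.5 to 31.5 and 127 to 159 CPM. The macrophage list itself, mostly Lyz2, was 30330 to 33230, 41140 to 45630 and 16720 to 18190 CPM. Of 10 macrophage markers, 7 rose and 1 fell with IL-33, and 3 rose and 7 fell with IL-4. The part of these shifts in the changes of the 36 genes was not tested.

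The mevalonate genes rose by 1.26 to 1.98 fold. Mvd, the decarboxylase that yields isopentenyl diphosphate, held 41.0, 41.6 and 41.1 CPM without cytokine, 79.7, 74.8 and 79.6 CPM with IL-33, and 76.0, 75.1 and 77.4 CPM with IL-4. All 6 stimulated libraries stood well above the 3 unstimulated ones, and the log2 changes were 0.92 ± 0.06 (SE; adjusted p = 3.51e-11, edgeR) and 0.89 ± 0.06 (adjusted p = 2.49e-11). Idi1, the isomerase that makes dimethylallyl diphosphate, went from 24.9, 28.7 and 22.8 CPM to 51.7, 48.4 and 46.7 CPM with IL-33 (log2 change 0.94 ± 0.10) and to 48.1, 43.6 and 40.1 CPM with IL-4 (0.79 ± 0.10), with no overlap. Acat2, the cytosolic acetyl-CoA acetyltransferase at the entry of the route, stood at 17.2, 18.5 and 15.9 CPM without cytokine. Its IL-33 libraries were uneven, at 38.7, 25.9 and 31.6 CPM (0.90 ± 0.11), while the IL-4 libraries were close together at 34.1, 35.4 and 32.5 CPM (0.99 ± 0.11). Neither group overlapped the unstimulated libraries.

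Hmgcs1, the HMG-CoA synthase, was among the most abundant genes of the route and went from 91.9, 104 and 99.5 CPM to 147, 161 and 163 CPM with IL-33 (0.68 ± 0.07) and 158, 156 and 149 CPM with IL-4 (0.65 ± 0.07). Of the Hmgcs1 exon length, 12.1% overlaps a gene on the opposite strand, Gm48342. Mvk and Pmvk, the kinases that phosphorylate mevalonate in turn, both rose, but Pmvk did so unequally. Its libraries held 17.3, 18.1 and 20.1 CPM without cytokine, 35.0, 31.8 and 34.7 CPM with IL-33 (0.87 ± 0.08) and 23.8, 22.2 and 23.8 CPM with IL-4 (0.33 ± 0.08). The 3 groups of Pmvk did not overlap. Mvk rose by 0.48 ± 0.09 and 0.46 ± 0.09 on the log2 scale. Fdps rose by 0.92 ± 0.19 and 0.95 ± 0.19 from 1.86, 1.79 and 1.65 CPM without cytokine to 3.65, 2.97 and 3.43 CPM with IL-33 and 3.35, 3.05 and 3.84 CPM with IL-4, with the shared sequence given above.

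The squalene and sterol genes rose by 1.91 fold (Tm7sf2 with IL-33) at the most and by 1.12 fold (Ebp with IL-33) at the least. Sqle, squalene epoxidase, a rate-limiting step, went from 45.8, 55.1 and 47.7 CPM to 96.5, 91.1 and 91.0 CPM with IL-33 (log2 change 0.91 ± 0.08, adjusted p = 6.96e-09, edgeR) and to 94.1, 101 and 87.1 CPM with IL-4 (0.93 ± 0.08, adjusted p = 2.24e-09). Nsdhl, which removes a methyl group from the sterol ring, went from 23.7, 26.4 and 25.0 CPM to 42.3, 38.6 and 39.1 CPM with IL-33 (0.68 ± 0.07) and 46.1, 48.5 and 46.4 CPM with IL-4 (0.91 ± 0.07). The 3 groups of Nsdhl did not overlap, with IL-4 highest. For 2 genes IL-33 gave the higher level: Tm7sf2, a sterol C14 reductase, stood at 8.20, 8.20 and 9.14 CPM without cytokine, 16.3, 17.3 and 15.3 CPM with IL-33 (0.93 ± 0.12) and 9.64, 11.5 and 12.1 CPM with IL-4 (0.38 ± 0.12). Hsd17b7, a 3-ketosteroid reductase of the route, stood at 11.4, 11.5 and 7.79 CPM without cytokine, 21, 19.2 and 18.1 CPM with IL-33 (0.93 ± 0.12) and 15.2, 13.9 and 15.2 CPM with IL-4 (0.53 ± 0.12). In both genes the 3 groups did not overlap, and the IL-4 libraries lay between the others. The IL-4 call of Tm7sf2 (adjusted p = 0.0119) was lost without unstimulated library 1 or 2 or IL-4 library 2 or 3 (log2 change 0.31 to 0.34). Of the Tm7sf2 exon length, 12.1% overlaps a gene on the same strand, Vps51.

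The other members of this role rose with each cytokine too. Fdft1, squalene synthase, rose by 0.67 ± 0.07 with IL-33 and 0.62 ± 0.07 with IL-4 on the log2 scale. Lss, which closes the ring to lanosterol, rose by 0.55 ± 0.07 and 0.67 ± 0.07, and Cyp51, which removes the 14-alpha methyl group, by 0.72 ± 0.06 and 0.78 ± 0.06. Msmo1, the methylsterol monooxygenase, rose by 0.48 ± 0.06 and 0.58 ± 0.06 and Sc5d, the C5 desaturase, by 0.46 ± 0.08 and 0.50 ± 0.08. The smallest changes were those of Ebp, the sterol isomerase, at 0.16 ± 0.06 and 0.22 ± 0.06, and of Dhcr7, the reductase of the last step, at 0.17 ± 0.06 and 0.49 ± 0.06. The IL-33 calls of Ebp (adjusted p = 0.0468, edgeR) and Dhcr7 (0.0252) were lost when single libraries were left out. For Ebp these were each unstimulated library and IL-33 libraries 1 and 2 (log2 change 0.10 to 0.17), and for Dhcr7 unstimulated libraries 1 and 2 and IL-33 libraries 2 and 3 (0.14 to 0.17). The IL-33 call of Ebp was also lost with limma-voom (adjusted p = 0.0529), upper-quartile scaling (0.167), no count filter (0.119) and a fit of the compared groups alone (0.071), and that of Dhcr7 with upper-quartile scaling (0.0951) and no count filter (0.105). The IL-4 call of Ebp was lost without IL-4 library 1 (0.15).

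Genes that control the SREBPs moved in both directions. Scap, the escort protein, fell with each cytokine: its libraries held 53.8, 49.9 and 50.1 CPM without cytokine, 37.2, 35.2 and 32.4 CPM with IL-33 and 35.9, 34.7 and 33.4 CPM with IL-4. The stimulated libraries all lay below the unstimulated ones, and the log2 changes were -0.55 ± 0.06 (adjusted p = 3.54e-07, edgeR) and -0.56 ± 0.06 (1.30e-07). Of the Scap exon length, 13.2% overlaps a gene on the opposite strand, 5830462I19Rik. Srebf1 went from 104, 106 and 110 CPM to 128, 124 and 133 CPM with IL-33 (0.27 ± 0.05) and 139, 144 and 134 CPM with IL-4 (0.38 ± 0.05), with no overlap between any of the groups. Srebf2 rose by 0.30 ± 0.05 and 0.18 ± 0.05, the latter call being lost without IL-4 library 2 (0.12, adjusted p = 0.0845). Stard4, a soluble carrier of cholesterol between membranes, went from 59.2, 68.3 and 63.7 CPM to 93.3, 97.8 and 98.3 CPM with IL-33 (0.60 ± 0.06) and 83.8, 79.3 and 77.0 CPM with IL-4 (0.33 ± 0.06), again without overlap.

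The INSIG genes differed from each other. Insig1, itself a well-known SREBP target, stood at 159, 175 and 162 CPM without cytokine, 174, 173 and 156 CPM with IL-33 and 184, 160 and 187 CPM with IL-4. The groups overlapped, and neither log2 change passed the test (0.02 ± 0.06, adjusted p = 0.826, and 0.10 ± 0.06, adjusted p = 0.157, edgeR). Without IL-4 library 2 the IL-4 value passed (0.15, adjusted p = 0.0334). Insig2 rose by 0.21 ± 0.06 with IL-33 and 0.35 ± 0.06 with IL-4. For Insig2 the IL-33 call (adjusted p = 0.0083) was lost without unstimulated library 1 or 3 (log2 change 0.17 and 0.16, adjusted p = 0.0593 and 0.07).

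Among fatty acid genes the stearoyl-CoA desaturases, which place the double bond of oleic and palmitoleic acid, changed most of all 36 genes. Scd2 held 233, 289 and 247 CPM without cytokine, 732, 763 and 834 CPM with IL-33 and 813, 991 and 764 CPM with IL-4. Both cytokines lifted every library far above the unstimulated ones, by 3.03 and 3.34 fold (log2 1.60 ± 0.13, adjusted p = 1.82e-09, and 1.74 ± 0.13, adjusted p = 2.06e-10, edgeR). Scd1 separated the cytokines: it held 35.7, 48.2 and 42.1 CPM without cytokine, 74.0, 84.6 and 87.1 CPM with IL-33 (1.95 fold, log2 0.96 ± 0.12) and 142, 158 and 151 CPM with IL-4 (3.59 fold, log2 1.84 ± 0.12). Elovl6, which elongates palmitate to stearate, did the opposite. Its libraries held 8.04, 7.39 and 7.82 CPM without cytokine, 15.1, 14.1 and 13.0 CPM with IL-33 (0.86 ± 0.10) and 8.16, 10.1 and 8.04 CPM with IL-4 (0.18 ± 0.11, adjusted p = 0.178, edgeR), where the IL-4 libraries overlapped the unstimulated ones.

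Fads2, the delta-6 desaturase of polyunsaturated fatty acids, went from 26.2, 31.6 and 29.8 CPM to 44.8, 43.6 and 42.9 CPM with IL-33 (0.58 ± 0.12) and 44.7, 48.1 and 45.2 CPM with IL-4 (0.65 ± 0.12), with no overlap. Its neighbour in the same pathway, Fads1, did not rise: it stood at 189, 191 and 180 CPM without cytokine, at 178, 177 and 179 CPM with IL-33 (log2 change -0.07 ± 0.04, adjusted p = 0.221, edgeR) and fell to 168, 164 and 161 CPM with IL-4 (-0.19 ± 0.04, adjusted p = 0.000728). Under upper-quartile scaling the IL-33 value of Fads1 also passed the test, at -0.12. The genes of the fatty acid chain itself, Acaca (acetyl-CoA carboxylase) and Fasn (fatty acid synthase), rose by 0.36 ± 0.09 and 0.36 ± 0.09 with IL-33 and by 0.53 ± 0.09 and 0.38 ± 0.09 with IL-4.

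**Figure D2:**
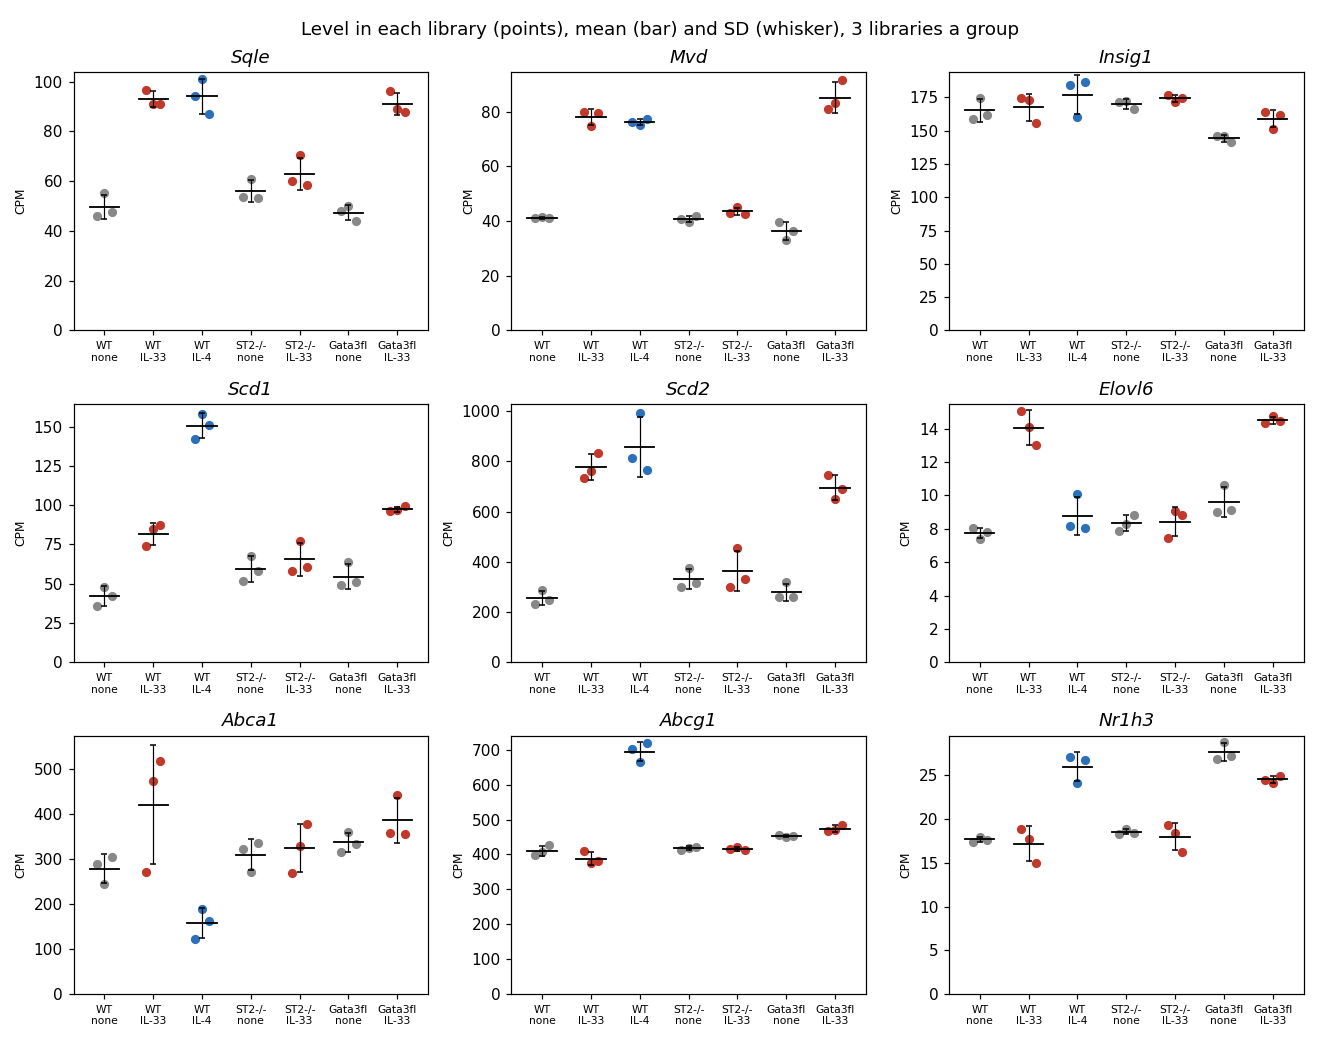
Level of 9 genes in every library (y axis, CPM from 0; points are libraries, the bar is the mean and the whisker the SD of 3 libraries; grey no cytokine, red IL-33, blue IL-4; Gata3fl is the line labelled Cx3cr1CRExGata3fl/fl). Sqle, Mvd and Scd2 are high with IL-33 or IL-4 in wild-type cells and stay near the unstimulated level with IL-33 in cells labelled ST2-/-, whereas the Insig1 libraries of wild-type cells overlap between the cytokines and 1 IL-33 library of Abca1 sits with the unstimulated ones.

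The genes of export, LXR signalling and esterification separated IL-33 from IL-4. Abca1, which loads cholesterol and phospholipid onto apolipoprotein A-I, held 289, 244 and 304 CPM without cytokine and 123, 190 and 163 CPM with IL-4, a fall without overlap (log2 change -0.81 ± 0.18, adjusted p = 0.000654, edgeR). With IL-33 it held 271, 474 and 518 CPM. Of these, 2 libraries lay far above the unstimulated ones and 1 lay among them. The rise (0.59 ± 0.18, adjusted p = 0.0118) was lost without unstimulated library 2 (0.50, adjusted p = 0.0651) and without IL-33 library 2 (0.49, adjusted p = 0.0675) or library 3 (0.41, adjusted p = 0.106), and the spread of Abca1 with IL-33, a coefficient of variation of 31.4%, was the widest of the 36 genes in that group.

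Abcg1 went the other way. It held 397, 408 and 427 CPM without cytokine, 409, 375 and 381 CPM with IL-33 and 701, 664 and 720 CPM with IL-4. The IL-4 libraries stood clear of all others (0.76 ± 0.04, adjusted p = 1.12e-12, edgeR), while the IL-33 change was -0.08 ± 0.04 (adjusted p = 0.141). The latter passed the test as a fall under upper-quartile scaling (-0.13, adjusted p = 0.0172) and without IL-33 library 1 (-0.13, adjusted p = 0.0308). Nr1h3 followed the pattern of Abcg1: 17.4, 18.0 and 17.6 CPM without cytokine, 18.9, 17.7 and 15 CPM with IL-33 (-0.04 ± 0.08) and 27.1, 24.1 and 26.7 CPM with IL-4 (0.56 ± 0.08). Soat1 rose by 0.14 ± 0.04 with IL-33 and by 0.54 ± 0.04 with IL-4. The small IL-33 call of Soat1 (adjusted p = 0.0172) was lost without unstimulated library 2 (0.11) or IL-33 library 2 (0.12) or 3 (0.11), with upper-quartile scaling (adjusted p = 0.11) and without a count filter (0.0619).

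Mylip, the LXR-driven ubiquitin ligase that marks the LDL receptor for destruction, fell with both cytokines. It held 66.9, 61.0 and 67.5 CPM without cytokine, 44.3, 52.2 and 50.7 CPM with IL-33 (log2 change -0.41 ± 0.07) and 36.0, 36.4 and 33.9 CPM with IL-4 (-0.88 ± 0.07). The 3 groups did not overlap. Of the known LXR targets Abcg1, Abca1, Mylip and Srebf1, then, Abcg1 and Srebf1 rose with IL-4, and Abca1 and Mylip fell. These may not be all the LXR targets on the list.

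Set directly against each other, IL-33 and IL-4 gave levels that passed the test for 14 of the 36 genes: 8 were higher with IL-33 (19.2% of all tested genes were) and 6 were higher with IL-4 (20.7% of all tested genes). Both counts are close to those shares. Of the mevalonate genes, Pmvk alone passed (0.54 ± 0.07 higher with IL-33 on the log2 scale), and of the sterol genes Tm7sf2 (0.55 ± 0.12) and Hsd17b7 (0.40 ± 0.11) were higher with IL-33 and Nsdhl (-0.23 ± 0.07) and Dhcr7 (-0.32 ± 0.06) higher with IL-4. Stard4 was higher with IL-33 by 0.27 ± 0.06. In the fatty acid group, Elovl6 (0.68 ± 0.10) and Fads1 (0.12 ± 0.04) were higher with IL-33 and Scd1 (-0.88 ± 0.12, adjusted p = 1.55e-06, edgeR) with IL-4. All 5 genes of the LXR and export group passed. Abca1 was higher with IL-33 by 1.41 ± 0.18 (2.66 fold, adjusted p = 1.22e-06), the widest difference of the 36 genes, and Mylip by 0.47 ± 0.07. Abcg1 (-0.84 ± 0.04), Nr1h3 (-0.59 ± 0.08) and Soat1 (-0.40 ± 0.04) were higher with IL-4. The call of Fads1 was lost without IL-4 library 3 (0.10, adjusted p = 0.1) and without a count filter (adjusted p = 0.107). For Hmgcs1, Mvd, Sqle and Scap the differences were 0.03 ± 0.07, 0.03 ± 0.06, -0.02 ± 0.08 and 0.01 ± 0.06.

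In cells labelled ST2-/-, none of the 36 genes passed the test with IL-33, and none of the 14473 did (0.00% up, 0.00% down). At an unadjusted p under 0.05 the edgeR test gave 507 genes, 6 of them among the 36. DESeq2 also called 0 genes (546 at an unadjusted p under 0.05, 6 among the 36), and limma-voom called 0 (572, 4 among the 36). Without a filter on low counts edgeR called 70 genes, none of the 36. The signs of the 36 changes were mostly positive: 30 lay above 0 (51.0% of all tested genes did), with a median of 0.09. The largest log2 values were 0.41 ± 0.19 for Fdps and 0.28 ± 0.12 for Hsd17b7.

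The difference between this response and that of wild-type cells was tested as an interaction. It passed for 23 of the 36 genes: 21 had a lower response in cells labelled ST2-/- (12.1% of all tested genes did) and 2, Scap and Mylip, had a higher one (10.6%), that is, they did not show the wild-type fall. The counts were 6 of 7 mevalonate genes, 9 of 11 squalene and sterol genes, 3 of 6 genes of SREBP control and transport (Srebf2 and Stard4 lower, Scap higher), 4 of 7 fatty acid genes and 1 of 5 of the LXR and export group. The interaction shares the wild-type libraries with the comparison above, so it is no independent evidence of the wild-type rise.

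The largest interaction was that of Scd2, which held 301, 377 and 317 CPM without cytokine and 301, 455 and 333 CPM with IL-33 in cells labelled ST2-/-. These groups overlapped, library 2 was highest in each, and the response was lower than in wild-type cells by a log2 difference of -1.47 ± 0.18 (adjusted p = 2.46e-06, edgeR). Scd1 held 51.8, 67.9 and 58.1 CPM and then 58.2, 77.3 and 60.8 CPM (-0.82 ± 0.17). Elovl6 held 7.87, 8.31 and 8.86 CPM and then 7.44, 9.06 and 8.80 CPM (-0.85 ± 0.15). In each of these desaturase and elongase genes the stimulated and unstimulated libraries overlapped. Fads2 held 36.5, 44.4 and 36.5 CPM and then 35.0, 47.8 and 33.6 CPM (-0.59 ± 0.17). Its unstimulated mean was already higher than in wild-type cells, at 39.1 against 29.2 CPM, without overlap. The main test did not call that difference, while DESeq2 did (log2 0.41, adjusted p = 0.0214). With IL-33 the means were 38.8 CPM in cells labelled ST2-/- and 43.7 CPM in wild-type cells.

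Of the mevalonate genes, Mvd held 40.7, 39.5 and 41.7 CPM without cytokine and 42.9, 45.1 and 42.7 CPM with IL-33 in cells labelled ST2-/-. These libraries did not overlap, yet the change was a log2 value of 0.10 ± 0.06, and the interaction was -0.82 ± 0.08 (adjusted p = 1.69e-07, edgeR). Idi1 held 28.8, 29.9 and 27.2 CPM and then 29.9, 37.0 and 28.8 CPM (interaction -0.79 ± 0.13), and Pmvk 18.2, 21.9 and 19.8 CPM and then 21.8, 22.2 and 19.7 CPM (-0.78 ± 0.11). Both pairs overlapped. Acat2 held 18.9, 17.7 and 16.6 CPM and then 22.4, 21.1 and 19.4 CPM. These groups did not overlap but the change did not pass (adjusted p = 1, edgeR), and the interaction was -0.65 ± 0.16. Hmgcs1 held 101, 116 and 110 CPM and then 108, 128 and 114 CPM, with overlap (-0.57 ± 0.10). Mvk also passed (-0.49 ± 0.13). Fdps did not (-0.51 ± 0.27, adjusted p = 0.199).

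Of the sterol genes, Sqle held 53.5, 60.9 and 53.1 CPM without cytokine and 60.2, 70.3 and 58.5 CPM with IL-33 in cells labelled ST2-/-, with overlap, and its interaction was -0.73 ± 0.11 (adjusted p = 4.12e-05, edgeR). Cyp51 held 84.4, 91.9 and 84.3 CPM and then 90.9, 102 and 87.3 CPM (-0.62 ± 0.09). Nsdhl held 28.2, 29.8 and 27.4 CPM and then 28.3, 31.3 and 29.1 CPM (-0.62 ± 0.09). Each of these showed overlapping groups with library 2 highest in both. Fdft1 held 32.1, 34.4 and 29.0 CPM and then 32.0, 35.5 and 28.9 CPM (-0.66 ± 0.11), and Lss held 39.4, 38.9 and 38.0 CPM and then 37.7, 42.1 and 37.7 CPM (-0.53 ± 0.10). In these also the groups overlapped. The groups of Tm7sf2 and Hsd17b7 did not overlap, though neither IL-33 change in these cells passed the test (adjusted p = 1 for both, edgeR). Tm7sf2 held 7.11, 8.13 and 8.58 CPM and then 9.08, 10.1 and 8.83 CPM (-0.70 ± 0.17). Hsd17b7 held 9.35, 11.1 and 10.6 CPM and then 11.9, 13.9 and 11.9 CPM (-0.64 ± 0.17). Interactions also passed for Msmo1 (-0.41 ± 0.08) and Sc5d (-0.35 ± 0.12), and not for Dhcr7 (-0.20 ± 0.08) or Ebp (-0.03 ± 0.09).

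Scap held 44.8, 41.9 and 47.5 CPM without cytokine and 48.3, 43.2 and 47.3 CPM with IL-33 in cells labelled ST2-/-, and its interaction was 0.60 ± 0.09 (adjusted p = 2.66e-05, edgeR). Stard4 held 69.8, 73.0 and 69.5 CPM and then 71.0, 83.1 and 72.7 CPM (-0.50 ± 0.09). Both genes had overlapping groups. Mylip had an interaction of 0.38 ± 0.10, and Srebf2 one of -0.22 ± 0.07 (adjusted p = 0.0318). The calls of Srebf2 and Sc5d (adjusted p = 0.0338) were lost under upper-quartile scaling (adjusted p = 0.079 and 0.0613) and with single libraries left out. For Srebf2 (-0.18 to -0.21) these were unstimulated wild-type libraries 1 and 3, wild-type IL-33 libraries 2 and 3, unstimulated ST2-/- libraries 2 and 3 and ST2-/- IL-33 libraries 1 and 3. For Sc5d (-0.26 to -0.32) they were unstimulated wild-type libraries 1 and 3, wild-type IL-33 libraries 1 and 2, unstimulated ST2-/- library 2 and ST2-/- IL-33 libraries 1 and 3. Insig2 passed without unstimulated wild-type library 2 (adjusted p = 0.0262) and Acaca without wild-type IL-33 library 1 (adjusted p = 0.0348). For Abca1 the interaction was -0.52 ± 0.25 (adjusted p = 0.148), and without wild-type IL-33 library 1, the one that had not risen, it passed at -0.76 (adjusted p = 0.00827).

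**Figure D3:**
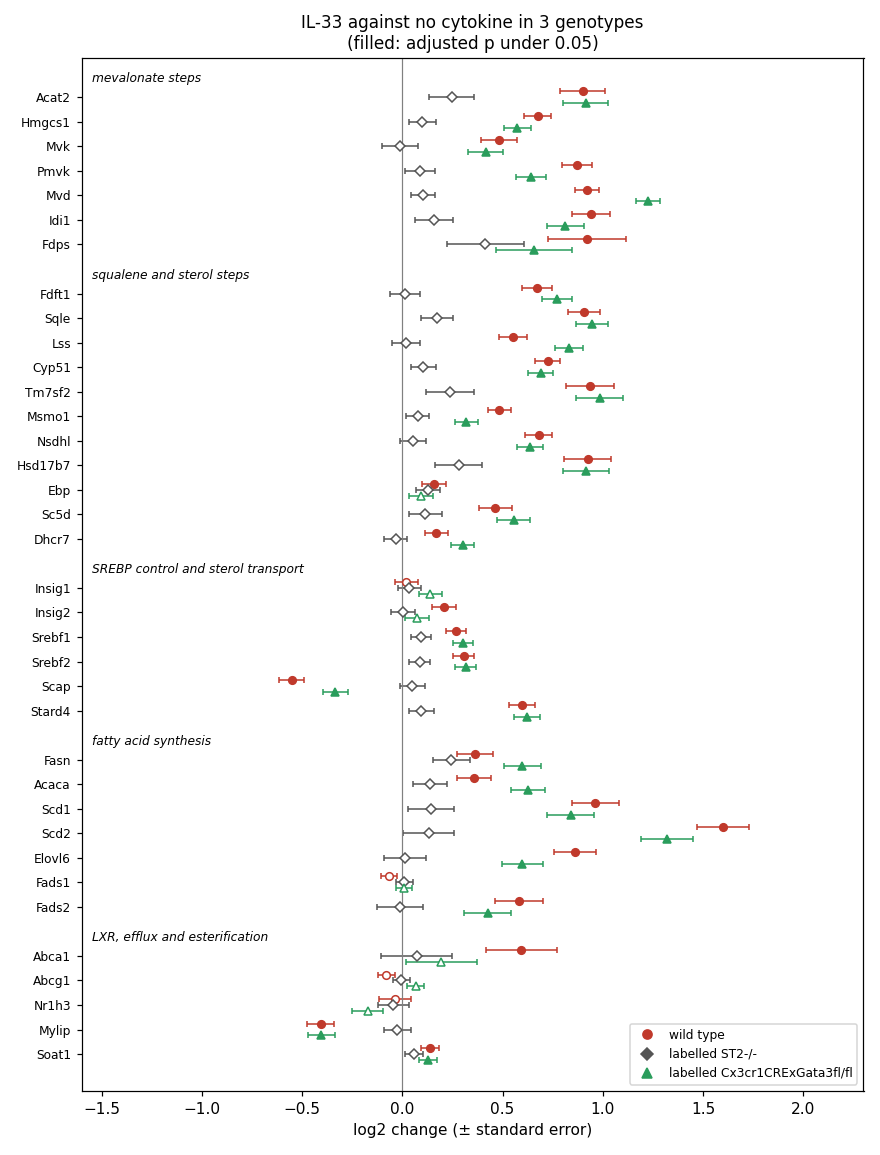
Log2 change with IL-33 against no cytokine for the 36 genes in wild-type cells (circles), cells labelled ST2-/- (diamonds) and cells labelled Cx3cr1CRExGata3fl/fl (triangles), 3 libraries a group. Bars are standard errors from the fit of all 21 libraries, and filled symbols passed the test. Every diamond is open, and most triangles lie close to the circles.

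In cells labelled Cx3cr1CRExGata3fl/fl, IL-33 raised 27 of the 36 genes (17.1% of all tested genes rose), lowered 2 (16.3% fell), and 7 did not pass. The median log2 change was 0.59, against -0.01 over all genes. Upper-quartile scaling changed the counts over all genes from 2471 up and 2364 down to 2001 up and 2985 down. By role, 7 of 7 mevalonate genes, 10 of 11 sterol genes (all but Ebp), 3 of 6 genes of SREBP control and transport, 6 of 7 fatty acid genes (all but Fads1) and 1 of 5 of the LXR and export group (Soat1) rose, and Scap and Mylip fell. Scd2 went from 258, 318 and 259 CPM to 747, 648 and 688 CPM (log2 change 1.32 ± 0.13, adjusted p = 3.77e-08, edgeR). Mvd went from 39.5, 33.1 and 36.5 CPM to 80.8, 83.0 and 91.6 CPM (1.23 ± 0.06, 2.34 fold). Neither gene had overlapping groups. The calls of Fdps (without unstimulated or IL-33 library 1, 0.56 and 0.50), Fads2 (without IL-33 library 1, 0.35) and Soat1 (without unstimulated library 2 or IL-33 library 1 or 2, 0.11 to 0.13) were lost with the libraries named, and that of Soat1 also with upper-quartile scaling (adjusted p = 0.168) and without a count filter (0.124). Markers of other cells moved in this line as well. The summed neutrophil list was 68.2 to 74.0 CPM per library without cytokine and 348 to 412 CPM with IL-33, and the erythroid and megakaryocyte list was 20.2 to 28.0 CPM and then 134.5 to 167 CPM. Their part in the changes of the 36 genes was not tested. Abca1 held 317, 360 and 334 CPM and then 359, 443 and 356 CPM, with overlap (0.19 ± 0.18, adjusted p = 0.44).

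No interaction between IL-33 and this genotype passed for the 36 genes, against 0.539% of all tested genes with a higher response and 0.677% with a lower one. At this depth and number of libraries, 6 of the 36 had an unadjusted p under 0.05 (edgeR), as did 1973 of all 14473 tested genes. The extremes were Mvd (0.31 ± 0.08, adjusted p = 0.0728, edgeR) and Abca1 (-0.40 ± 0.25, adjusted p = 0.524). DESeq2 called Mvd (0.31, adjusted p = 0.0209), as did the fit with a replicate block (adjusted p = 0.046) and the fit without unstimulated floxed library 1 (0.39, adjusted p = 0.032). With limma-voom none of the 36 was called, and 7 had an unadjusted p under 0.05, as did 1939 of all tested genes. That none passed does not show that the responses were equal: for Sqle the difference was 0.04 ± 0.11, for Scd2 -0.28 ± 0.18, for Elovl6 -0.26 ± 0.15 and for Lss 0.28 ± 0.10. The ST2 gene Il1rl1, in contrast with wild-type cells, fell with IL-33 in this line, from 14.7 ± 1.87 to 6.44 ± 1.12 CPM (interaction -1.19 ± 0.21, adjusted p = 0.00405).

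Without cytokine, cells labelled ST2-/- differed from wild-type cells at 2 of the 36 genes, both higher (0.871% of all tested genes were higher and 0.484% lower). Scd1 held 51.8, 67.9 and 58.1 CPM against 35.7, 48.2 and 42.1 CPM (log2 difference 0.50 ± 0.12, adjusted p = 0.0359, edgeR), and Cyp51 held 84.4, 91.9 and 84.3 CPM against 66.3, 77.2 and 69.0 CPM (0.29 ± 0.06, adjusted p = 0.0189). Neither gene's groups overlapped. Of the 36 genes, 30 lay above 0 (51.2% of all tested genes did), with a median of 0.12. Both calls were lost in a fit of these 2 groups alone (adjusted p = 0.058 for Cyp51 and 0.0597 for Scd1) and without wild-type library 1 or 3 or ST2-/- library 2 (0.25 to 0.27 for Cyp51, 0.39 to 0.50 for Scd1), and that of Scd1 also without ST2-/- library 3 (0.51). Among the 36, DESeq2 called 5 genes higher and the fit with a replicate block 6. Over all tested genes the number called higher went from 126 to 241 and 300 with these settings.

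Unstimulated cells of the floxed line differed from wild-type cells at 8 of the 36 genes, 7 higher (5.60% of all tested genes) and 1 lower (4.25%). Nr1h3 showed the largest difference: 26.9, 28.9 and 27.2 CPM against 17.4, 18.0 and 17.6 CPM, well apart (log2 0.65 ± 0.08, adjusted p = 1.33e-05, edgeR). Scd1 (0.38 ± 0.12), Mvk (0.29 ± 0.09), Msmo1 (0.21 ± 0.06), Ebp (0.20 ± 0.06), Soat1 (0.20 ± 0.04) and Abcg1 (0.14 ± 0.04) were higher and Insig1 was lower (-0.19 ± 0.06). Insig1 held 146, 146 and 141 CPM in the floxed line against 159, 175 and 162 CPM. With any single library of either group left out, 2 to 4 of the 36 genes were called higher and 0 to 2 lower. The calls of Nr1h3 and Soat1 were made in each of these 6 fits. The call of Abcg1 was made only without wild-type library 3, that of Mvk only without floxed library 2, that of Msmo1 only without wild-type library 2 and that of Ebp only without floxed library 1. In the 5 fits that lost each, the values were 0.11 to 0.14, 0.20 to 0.34, 0.15 to 0.21 and 0.17 to 0.22. Scd1 was lost without wild-type library 1 or 3 or floxed library 2 or 3 (0.25 to 0.41), and Insig1 without wild-type library 2 or floxed library 2 or 3 (-0.20 to -0.16). Of 11 tested neutrophil markers, 6 were higher in the unstimulated floxed line than in wild-type cells and 5 did not pass, and their part in these differences was not tested. Under IL-33, 4 of the 36 were higher in the floxed line than in the wild type (5.50% of all tested genes were higher and 5.85% lower), and 32 did not pass. These were Nr1h3 (24.5, 24.2 and 25.0 CPM against 18.9, 17.7 and 15 CPM; 0.51 ± 0.08, adjusted p = 0.000121), Abcg1 (0.29 ± 0.04), Soat1 (0.20 ± 0.04) and Fads1 (0.14 ± 0.04). The call of Fads1 was lost without any 1 wild-type library or floxed library 1 or 3 (0.11 to 0.15). With a replicate block 7 of the 36 were called higher, and the number called higher over all tested genes went from 796 to 932. The sex of the libraries differs here in the same way as the genotype.

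Within several groups many of the 36 genes were highest in the same library. Library 2 was the highest of its group for 21 of the 36 genes in unstimulated wild-type cells, for 23 in the unstimulated floxed line, and for 21 and 25 in unstimulated and IL-33-treated cells labelled ST2-/-. In wild-type cells with IL-33 and in the floxed line with IL-33 it was highest for 5 and 4 genes, and with IL-4 for 15. Over all tested genes, library 2 was highest for 35.3% in unstimulated wild-type cells, 35.9% in the unstimulated floxed line, 37.0% and 32.9% in unstimulated and IL-33-treated cells labelled ST2-/-, 26.8% and 32.8% in IL-33-treated wild-type and floxed cells, and 33.3% with IL-4. Scd2, Scd1, Sqle, Fdft1, Nsdhl and Fads2 were each highest in library 2 in 5 of the 7 groups. These 6 were picked after their values were seen, and what the libraries with the same number share is not given in the labels.

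**Figure D4:**
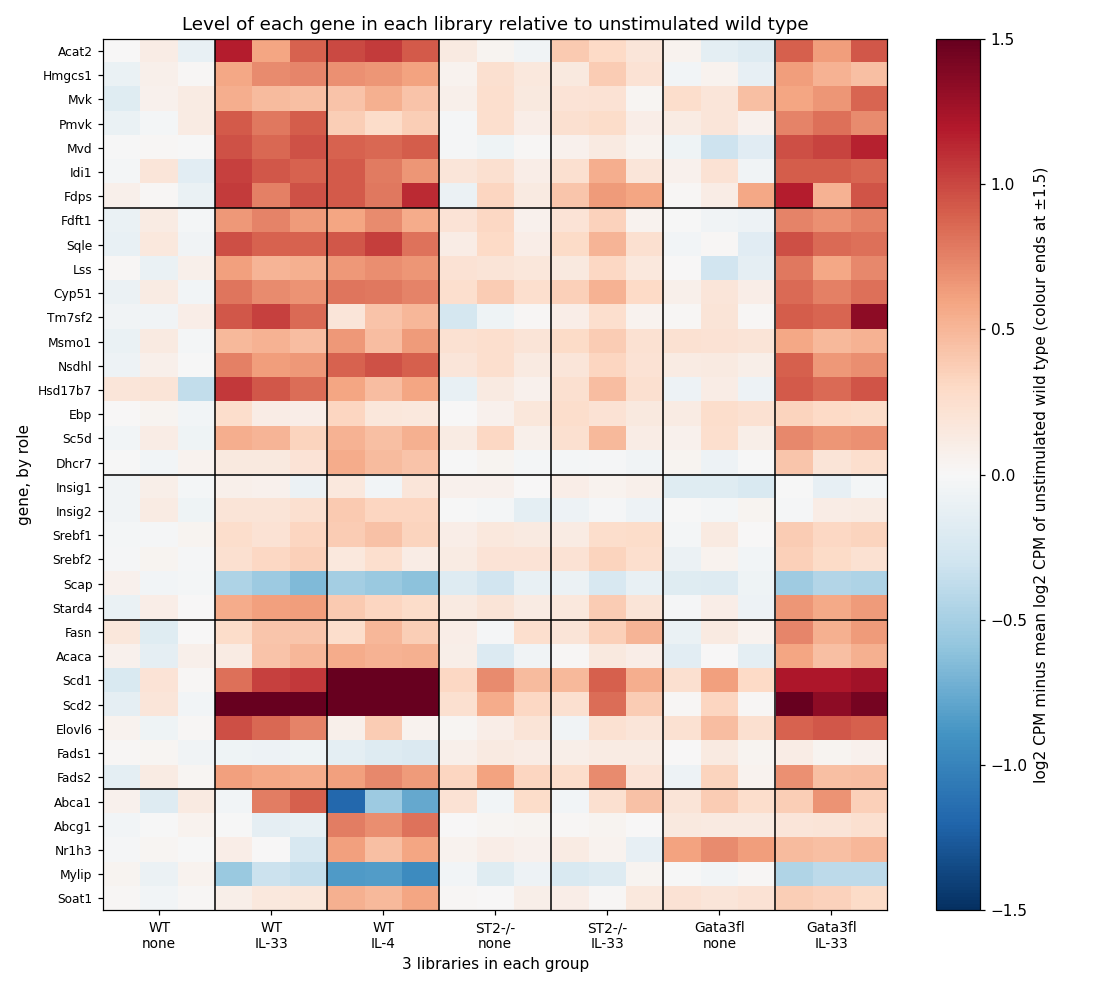
Level of the 36 genes (rows, by role) in each of the 21 libraries (columns, 3 a group), as log2 CPM minus the mean log2 CPM of unstimulated wild-type cells; red is higher, blue lower, and colours end at ±1.5. The red block of synthesis genes covers the wild-type IL-33 and IL-4 groups and the floxed line with IL-33, the ST2-/- groups are pale, and Abcg1 and Nr1h3 are red with IL-4. Nr1h3 is also red in both groups of the floxed line.

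Other genes of the same pathways are counted here by list, to be read against the shares of all tested genes: 18.5% up and 16.9% down with IL-33, and 25.1% up and 22.5% down with IL-4. Of 7 tested genes of other sterol synthesis steps and their electron donors, 3 rose and 2 fell with IL-33, and 4 rose and 2 fell with IL-4. Lbr, the other C14 reductase beside Tm7sf2, fell by 0.41 ± 0.07 with IL-33 and 0.90 ± 0.07 with IL-4 on the log2 scale. Of 12 genes of SREBP processing, INSIG turnover and sterol uptake, 2 rose and 3 fell with IL-33, and 6 rose and 4 fell with IL-4. Tmem97, a sterol-responsive membrane protein, rose by 0.49 ± 0.08 and 0.45 ± 0.08. Of 14 genes of fatty acid precursor supply and elongation, 5 rose with IL-33 and 9 did not pass, and 6 rose with IL-4 and 8 did not pass. Aacs, which activates acetoacetate in the cytosol, rose by 0.62 ± 0.05 with IL-33. Of 14 LXR partners and targets with genes of cholesterol ester and oxysterol handling, 4 rose and 6 fell with IL-33, and 2 rose and 7 fell with IL-4. Cyp27a1, which makes 27-hydroxycholesterol, fell by 0.91 ± 0.11 and 1.03 ± 0.11. In cells labelled ST2-/-, 0 genes of the 4 lists passed with IL-33 in the edgeR test, which called 0 of all genes.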

How the data were processed

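Read counts per gene were deposited by the authors as 1 table of 47069 rows and 21 libraries, with no normalization in the table. Per the submitters' processing notes, HISAT2 2.0.5, HTSeq 0.6.1 and DESeq2 1.22.2 were used with the GRCm38 (mm10) assembly. Per the labels' protocols, libraries were made from 1 ug of RNA with the NEBNext Ultra kit and read as pairs of 150 bases on a NovaSeq. The gene annotation, strand setting and overlap rule are not given in the sources used here. Depth was 32626469 to 48743646 counts a library.

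These deposited counts went into edgeR 4.0.16 (R 4.3.3): filterByExpr with the 7 groups (14473 genes kept, at least 99.97% of each library's counts), TMM scaling, and 1 quasi-likelihood fit of all 21 libraries with a mean for each group, 14 residual degrees of freedom and no batch term. P-values were adjusted by Benjamini-Hochberg within each of 10 comparisons over all genes tested, with calls at 0.05. Each standard error of a log2 change is its absolute value divided by the square root of its F statistic in this fit. The 36 genes were taken by symbol, and all are accounted for. By rule, library values are given for the 2 genes of each role with the largest called change with IL-33 and the 2 with IL-4, and for genes called in an interaction or between genotypes with an absolute log2 value of at least 0.5. Others are given where a contrast with these helps. Of each list of other pathway genes, at most 2 are named per comparison. The genes and lists were chosen with earlier results of these data known. Exon lengths, overlaps and shared 50-base words came from GENCODE M21, and promoters from RefSeq. The fit was tested on simulated counts. Alternatives were limma-voom (limma 3.58.1), DESeq2 1.42.0, upper-quartile scaling, no count filter, only the groups compared, a replicate block and each library left out.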

Additional observations from a re-analysis of the deposited data

Results flagged for a closer look

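The IL-33 response differed between cells labelled ST2-/- and wild-type cells for 23 of the 36 genes, by the interaction test of edgeR with adjustment over all tested genes. Values are log2 differences, ST2-/- response minus wild-type response. Among the mevalonate genes they were -0.82 for Mvd, -0.79 for Idi1, -0.78 for Pmvk, -0.65 for Acat2, -0.57 for Hmgcs1 and -0.49 for Mvk. Among the squalene and sterol genes they were -0.73 for Sqle, -0.70 for Tm7sf2, -0.66 for Fdft1, -0.64 for Hsd17b7, -0.62 for Nsdhl, -0.62 for Cyp51, -0.53 for Lss, -0.41 for Msmo1 and -0.35 for Sc5d. Scap (0.60) and Mylip (0.38) had positive values, and Stard4 (-0.50) and Srebf2 (-0.22) negative ones. The fatty acid genes gave -1.47 for Scd2, -0.85 for Elovl6, -0.82 for Scd1 and -0.59 for Fads2. With 3 libraries a group, no gap test for an outlying library was made.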

How the results depend on the processing

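Each of 360 values (36 genes in 10 comparisons) was recomputed under 6 other settings of the fit and with single libraries left out, and no called value changed sign. Of them, 352 kept their side of the threshold with DESeq2, 356 with limma-voom, 351 with upper-quartile scaling, 350 with a replicate block, 349 with only the groups compared and 339 without a count filter. Library numbers were treated as not pairing the samples: over 15 same-genotype pairs with the same number, the correlation of deviations ranged from -0.022 to 0.11, though in 9 of the 15 the same number gave the best match. Over all 63 pairs, across genotypes too, it ranged from -0.04 to 0.11, and the same number gave the best match in 40. If the numbers meant nothing, the same number would be best in about 1 of every 3 pairs. Both counts lie above that share, so the small correlations do not show that the numbers are without meaning. The counts among the 36 genes that moved by more than 1.5 times were these. With upper-quartile scaling, 4 fell with IL-33 in wild-type cells (2 in the report). For the interaction with the floxed line (0 in the report), the replicate block and DESeq2 each gave 1 higher, and leaving out the count filter gave 2 lower. For unstimulated ST2-/- against wild type, the replicate block gave 6 higher, no filter 6, DESeq2 5 and only the groups compared 0 (2 in the report). For the unstimulated floxed line, the replicate block and DESeq2 each gave 2 lower (1 in the report). With IL-33 in the floxed line against wild type, the replicate block gave 7 higher (4 in the report) and no filter 1 lower. When single libraries were left out, the ranges were 26 to 29 risen and 2 to 3 fallen with IL-33 in wild-type cells, 24 to 27 risen with IL-33 in the floxed line, 19 to 22 lower and 2 higher in the ST2-/- interaction, 0 to 1 higher in the floxed interaction, 0 to 3 higher in unstimulated ST2-/- cells, and 2 to 4 higher and 0 to 2 lower in the unstimulated floxed line. Of 2592 values with a library left out, 84 lost a call and 13 gained one. Over all tested genes, the 176 calls of the floxed interaction became 555 without a filter, 355 with the replicate block and 384 with DESeq2, and the 196 calls of unstimulated ST2-/- against wild type became 875, 590 and 438. The 1425 calls of the unstimulated floxed line against wild type became 1793, 1800 and 1799, and the 1642 calls under IL-33 became 1987, 1951 and 1954. Where these settings moved a count, the cause was not tested.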
